A study of Homo sapiens with 8 samples.

Results

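GC-poor promoters of protein-coding genes were examined in HepG2 cells. A promoter was taken as the 1000 bp to either side of the transcription start site (TSS) of a gene's canonical transcript in GENCODE 44, and it counted as GC-poor when the sequence within 500 bp of the TSS held under 45% G and C in hg38. Of 19111 protein-coding genes on chromosomes 1 to 22, 1979 (10.4%) had such a promoter. The bulk experiment comprised 8 libraries of HepG2, 1 for each combination of 0.1, 0.5, 1 or 5% formaldehyde (FA) with cryopreservation or flash freezing, and asked how fixation and freezing affect ATAC-seq data. HepG2 is a human line grown from a liver cancer, labelled wild type, and ATAC-seq inserts sequencing adapters into accessible DNA with the transposase Tn5. Every value below was taken from the peaks of 1 library, the cryopreserved one at 0.1% FA. This library has no replicate, so no value carries an error between replicates and groups of promoters were not tested against each other. Ranges in parentheses after a share are exact Clopper-Pearson 95% intervals and reflect counting error alone.

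A promoter is called open below when at least 1 peak of the list overlapped its window, and closed otherwise. Closed therefore means that no peak was called at this depth, not that the DNA was inaccessible. Of 60628 peaks, 59106 lay on autosomes. Among the hepatocyte markers used to check the label, 12 of 14 had an open promoter, with ALB and FGB as the exceptions, where 62.5% of all protein-coding promoters were open. Only 5 of these 14 promoters were GC-poor, and 3 of the 5 were open. Of 8 markers of blood, endothelium and stroma 0 had an open promoter.

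Many vertebrate promoters lie in CpG islands, stretches rich in G, C and the CpG dinucleotide that are accessible in many cell types. GC-poor promoters mostly lack such an island. They belong mainly to genes used in few tissues, among them the secreted proteins and metabolic enzymes of the liver, and some carry a TATA box, the site that positions the transcription machinery a short way before the TSS. In hepatocytes, factors such as HNF4A, FOXA and C/EBP bind promoters of this kind. HNF1 factors recognise a palindrome. It was searched here without its last base, as GTTAAT, any base, ATTAA, and is called the HNF1 site below.

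The 100 bases before the TSS are shown for 9 open GC-poor promoters of liver genes. That stretch held 90 of the 183 summits at open members (49.2%), which is why it was chosen. At AFM, UGT2A3 and SAA4 the summit lay outside it, at -208, 94 and -395 bp relative to the TSS. The peaks of AFM and SAA4 did not overlap the bases shown. Capitals mark a TATA box (TATAAA on the strand of the gene) or a match to the HNF1 site on either strand with 1 letter different. TTR (chr18:31591777-31591876, plus strand), FABP1 (chr2:88128063-88128162, minus strand) and AFM (chr4:73481645-73481744, plus strand) hold a TATA box, with its first base at -30, -31 and -30 relative to the TSS. C4BPA (chr1:207104133-207104232, plus strand), UGT2A3 (chr4:68951805-68951904, minus strand) and SAA4 (chr11:18236803-18236902, minus strand) hold an HNF1 match, which starts at -50, -50 and -94. The other 3 hold neither, though FGA holds ATTAAC, which is GTTAAT on the other strand. They are among those of highest fold, FGA (chr4:154590743-154590842, minus strand), ABCC2 (chr10:99782540-99782639, plus strand) and ADH4 (chr4:99144298-99144397, minus strand). Each is given 5′ to 3′ on the strand of its gene, from hg38, and stretches that overlap an annotated exon were left out.
C4BPA: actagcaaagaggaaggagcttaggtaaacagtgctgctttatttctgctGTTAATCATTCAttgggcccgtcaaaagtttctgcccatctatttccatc
TTR: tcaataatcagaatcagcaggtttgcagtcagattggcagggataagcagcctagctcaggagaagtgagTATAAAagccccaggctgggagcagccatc
UGT2A3: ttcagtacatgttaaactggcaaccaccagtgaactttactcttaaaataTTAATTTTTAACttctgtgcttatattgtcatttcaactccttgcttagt
FABP1: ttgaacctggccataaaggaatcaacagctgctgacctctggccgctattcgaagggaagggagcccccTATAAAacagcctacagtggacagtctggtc
AFM: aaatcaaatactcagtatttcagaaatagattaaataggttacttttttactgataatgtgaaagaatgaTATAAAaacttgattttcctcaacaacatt
SAA4: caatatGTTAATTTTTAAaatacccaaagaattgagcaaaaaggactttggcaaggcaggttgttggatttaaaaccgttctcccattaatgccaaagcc
FGA: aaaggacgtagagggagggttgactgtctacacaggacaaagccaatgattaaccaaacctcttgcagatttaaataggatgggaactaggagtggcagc
ABCC2: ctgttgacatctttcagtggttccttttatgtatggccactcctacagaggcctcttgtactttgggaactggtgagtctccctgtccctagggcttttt
ADH4: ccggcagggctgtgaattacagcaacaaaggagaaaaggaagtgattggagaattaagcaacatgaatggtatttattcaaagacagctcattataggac

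Open promoters were few in this class. Of the 1979 GC-poor promoters 183 were open (9.25%, 8.01 to 10.6%), where 62.5% of all protein-coding promoters were open, and 11769 of 17132 promoters of 45% GC or more (68.7%, 68.0 to 69.4%). Below the limit the share ranged from 4.59% (10 of 218) at 32.5 to 35% GC to 12.6% (60 of 478) at 42.5 to 45% GC, and the lowest bin, under 32.5% GC, held 12 open promoters of 138 (8.70%, 4.57 to 14.7%). Neighbouring bins under 45% GC had intervals that overlapped. Just inside the limit, at 44 to 45% GC, 21 of 190 promoters were open (11.1%), and just outside it, at 45 to 46% GC, 44 of 216 (20.4%). The open GC-poor promoters of lowest GC content belonged to LRRC70 (28.8%), AFM (29.9%), ENPP3 (30.9%), FGL1 (31.0%) and C6 (31.9%), and 3 of these, AFM, FGL1 and C6, encode plasma proteins made by liver.

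**Figure D1:**
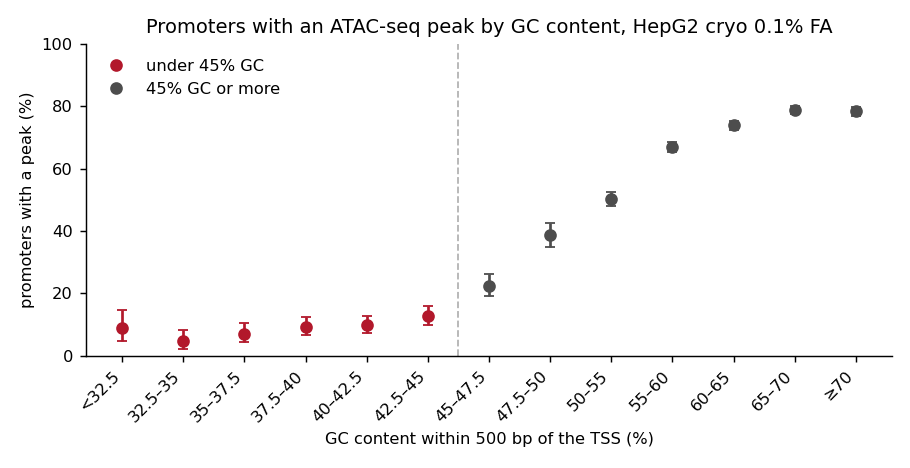
Share of protein-coding promoters on chromosomes 1 to 22 with a peak (y axis, %) by GC content within 500 bp of the TSS (x axis, %), in the cryopreserved 0.1% FA library; bars are exact 95% binomial intervals and the dashed line is the 45% limit. All 6 bins under 45% GC lie between 4.59 and 12.6%, and the bins of 65 to 70% GC and of 70% GC or more reach 78.9 and 78.4%.

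CpG content varied among GC-poor promoters. The ratio of observed to expected CpG, which is near 1 where CpG is not depleted, had a median of 0.254 at open and 0.193 at closed GC-poor promoters. With a ratio of 0.5 or more, 24 of 67 GC-poor promoters were open (35.8%, 24.5 to 48.5%), and with a lower ratio 159 of 1912 (8.32%, 7.12 to 9.64%). At 45% GC or more the corresponding shares were 80.2 and 23.2%. Open promoters of liver genes were mostly of the low kind, as 1 of 43 had a ratio of 0.5 or more, against 23 of 140 open promoters outside the liver lists. The low kind also prevailed among GC-poor promoters at large (1912 of 1979). Of the 112 GC-poor promoters of the liver lists, open or closed, 2 had a ratio of 0.5 to 0.6 and 0 one of 0.6 or more.

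Genes of liver function supplied 43 of the 183 open promoters (23.5%) and 69 of the 1796 closed ones (3.84%). These genes came from 6 lists. They covered plasma proteins, complement and coagulation, lipid handling, metabolism of drugs, bile acids and steroids, and metabolism of amino acids, urea and glucose. The last held liver transcription factors and other regulators. Together the lists held 112 GC-poor promoters, of which 38.4% (29.4 to 48.1%) were open, and 170 of their 227 promoters of 45% GC or more (74.9%, 68.7 to 80.4%). Counting peaks with a -log10 q of at least 20 alone, 22 of the 112 (19.6%) were open. In 6 lists of other tissues 7 of 141 GC-poor promoters were open (4.96%, 2.02 to 9.96%), and among the 1726 in no such list 133 (7.71%, 6.49 to 9.07%). The share ranged from 3 of 13 to 5 of 8 promoters among the liver lists, with intervals that overlapped.

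**Figure D2:**
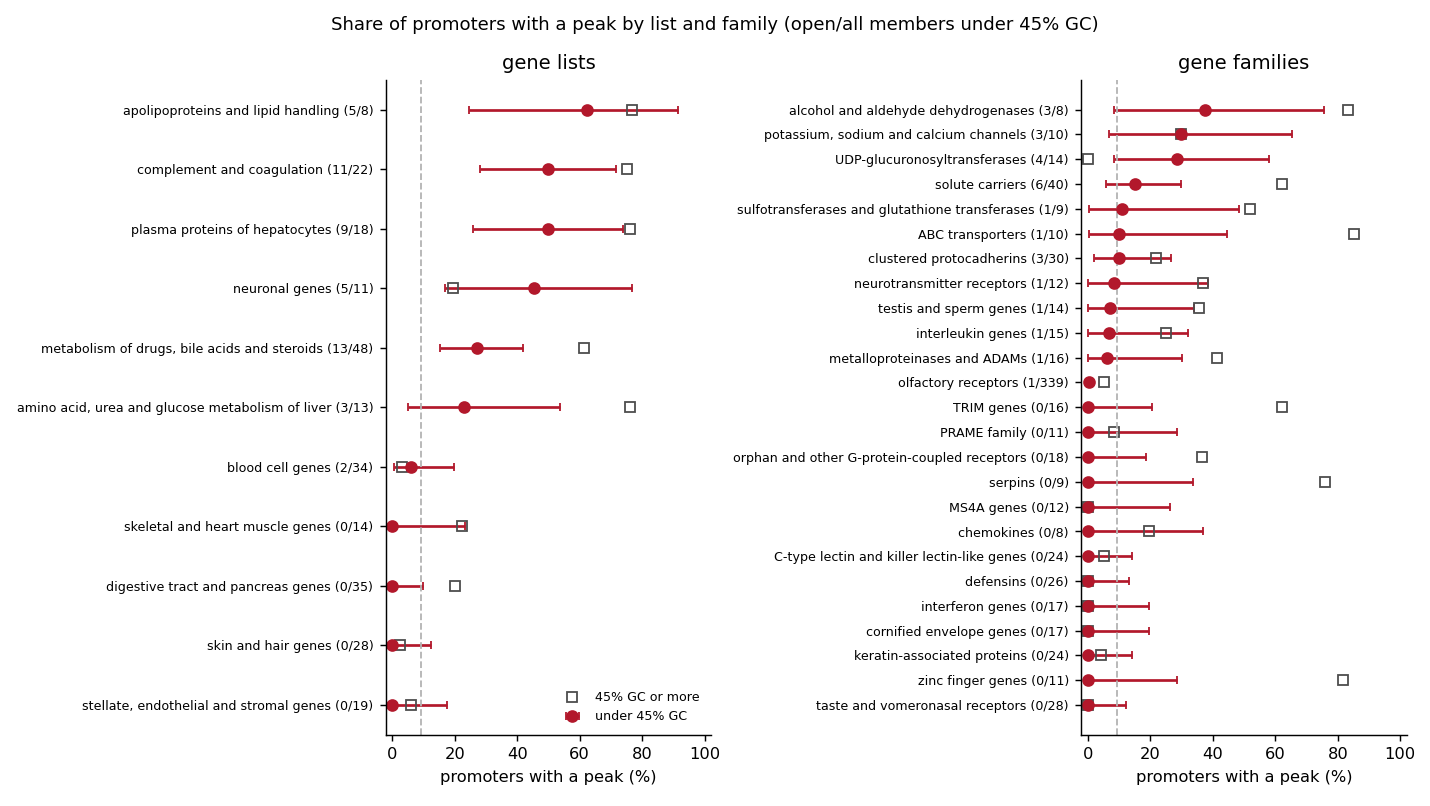
Share of promoters with a peak (x axis, %) by gene list (left) and gene family (right), for lists and families with at least 8 GC-poor promoters; red points are promoters under 45% GC with exact 95% intervals, squares are promoters of 45% GC or more, the dashed line is the share over all GC-poor promoters, and counts beside each name are open of all members under 45% GC. Lists of liver function reach 23.1 to 62.5%, and olfactory receptors have 1 open promoter of 339.

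Complement and coagulation genes, whose products form the cascades that lyse microbes and clot blood, had 11 open promoters of 22, with a median fold enrichment of 12.5. Fold enrichment is the caller's ratio of signal at the summit to the local background. FGA, a fibrinogen chain, had the highest, 25.4, in a peak at chr4:154590697-154590984 with its summit at -71 bp from the TSS (negative positions are upstream) and 56 fragments at the summit. FGG, another fibrinogen chain, had 16.6 at -51 bp. The remaining fibrinogen gene of the cluster, FGB, was closed, and its nearest peak, with a fold of 8.16, ended 1972 bp upstream of the TSS. C4BPA, a chain of the regulator C4b-binding protein, had 19.2 at -38 bp, and its neighbour C4BPB had 11.2 at -30 bp. C8B had 15.0 at -27 bp. For the terminal complex that perforates membranes, C6, C7, C8A and C8B, a group chosen after the values were seen, were open in 4 of 4 cases. Their folds were 15.0 for C8B, 14.2 for C6, 9.79 for C8A and 9.72 for C7. C5, which also feeds this complex, is GC-poor but was not counted in the group. It was closed, with its nearest peak 3394 bp upstream, though another annotated start had a peak of fold 12.6. The summit at C7 lay in an intron, at 448 bp. The factor H family of complement regulators, chosen in the same way, had 1 open member of 6, CFHR4, with a fold of 5.95 from 6 fragments.

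Plasma proteins of hepatocytes had 9 open promoters of 18 and a median fold of 9.25. HPR and HP, which encode haptoglobin-related protein and the hemoglobin-binding haptoglobin, had 25.9 (summit at -101 bp) and 22.4 (summit at 18 bp). These genes are near-identical copies, and 84.2 and 83.2% of the 50-base stretches in their windows occurred once in hg38, so reads of these genes cannot always be told apart. TTR, the carrier of thyroxine and of retinol-binding protein, had 18.9 at -51 bp, downstream of which lay the TATA box printed above. FGL1, a fibrinogen-like protein secreted by liver, had 9.73 at -713 bp. ALB, the gene of serum albumin, was closed, and its nearest peak, with a fold of 16.8, lay 15101 bp upstream of the TSS. AFP, the fetal albumin-like protein, is named here after its values were seen: it was closed too, with a peak of fold 13.3 lying 3337 bp upstream.

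Genes of the metabolism of drugs, bile acids and steroids were the largest liver list, with 13 open promoters of 48 and a median fold of 14.8. ABCC2, a pump that exports conjugates into bile, had 23.3 at -44 bp in a peak at chr10:99782469-99782741 with 59 fragments. ADH4 and ADH6, alcohol dehydrogenases, had 18.0 at -59 bp and 17.3 at 16 bp. SULT2A1, which sulfates steroids and bile acids, had 17.01 at -71 bp. CYP7A1, the rate-limiting enzyme of bile acid synthesis, was the open member among 7 cytochrome P450 genes, with a fold of 10.1 from 11 fragments. Of 14 UDP-glucuronosyltransferases, which conjugate drugs and bilirubin, 4 were open, UGT2A3 (16.98), UGT2B4 (8.85), UGT2B7 (8.47) and UGT2B10 (7.91, in a window 79.1% unique). The aldo-keto reductases AKR1C1 (14.8 at 3 bp) and AKR1C2 (13.7 at -10 bp) were open, with 51.0 and 51.5% of the 50-base stretches in their windows occurring once in hg38.

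The smaller liver lists had median folds of 14.3 for lipid handling and 10.8 for amino acid, urea and glucose metabolism. Transcription factors and other regulators had 11.3. Apolipoproteins and lipid handling had 5 open promoters of 8, FABP1 (16.2), ACSM3 (16.2), APOH (14.3), PPARGC1A (13.2) and MTTP (9.87). FABP1 binds fatty acids in the hepatocyte cytoplasm, and MTTP loads lipid onto apolipoprotein B. LPA, BAAT and LIPC were closed. Amino acid, urea and glucose metabolism had 3 of 13, KYNU (17.6) and KMO (10.8) of the kynurenine pathway of tryptophan breakdown and the glucose transporter SLC2A2 (8.31). The list of liver transcription factors and other regulators had 3 of 5 open. These were the coactivator PPARGC1A, counted above too, NR5A2 (11.3) and the RNA-binding protein LIN28B (9.05). HNF4G and the bile acid receptor NR1H4 were closed, though another annotated start of HNF4G had a peak of fold 18.5. The summits at KMO and LIN28B lay at -943 and -895 bp.

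Among lists of other tissues, neuronal genes had 5 open promoters of 11 (45.5%, 16.7 to 76.6%, beside 9.25% of all GC-poor promoters). DLG2, a scaffold protein of synapses, had a fold of 27.9, and its summit at -1190 bp lay nearer to the TSS of TMEM126B. TPH2, an enzyme of serotonin synthesis, had 16.5 from 20 fragments. The sodium channel genes SCN1A, SCN3A and SCN2A had 11.2, 10.9 and 5.95, from 15, 12 and 6 fragments. Blood cell genes had 2 of 34 open (5.88%, 0.720 to 19.7%, a range that includes 9.25%). Among them was LYZ, which encodes lysozyme, with 20.6 at 3 bp. In 4 lists no member was open, with 0 of 35 digestive tract and pancreas genes, 0 of 28 skin and hair genes, 0 of 19 stellate, endothelial and stromal genes and 0 of 14 muscle genes. A count of 0 allows shares of up to 8.57, 10.7, 15.8 and 21.4%, where the limit is taken here and below as 3 counts of the total. The exact 95% upper bounds are 10.003, 12.3, 17.6 and 23.2%, and all lie above the 9.25% of all GC-poor promoters.

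Many closed promoters belonged to large families of receptors and of surface and defence proteins. Olfactory receptors, expressed in the nose, had 1 open promoter of 339 (0.295%, 0.00747 to 1.63%), OR2F2, with a fold of 8.49 from 9 fragments. Without this family 182 of 1640 GC-poor promoters were open (11.1%, 9.62 to 12.7%). Of 31 families with at least 5 GC-poor promoters, 16 had no open member, with 238 promoters in all. They included taste and vomeronasal receptors (0 of 28), defensins (0 of 26), keratin-associated proteins (0 of 24), C-type lectin and killer lectin-like genes (0 of 24) and interferon genes (0 of 17). The count of 0 allows up to 10.7% for taste and vomeronasal receptors, 11.5% for defensins and 17.6% for interferon genes. These limits lie above the 9.25% of all GC-poor promoters. Some of these families consist of near-identical copies, and 13 of 26 defensin windows, 9 of 17 interferon windows and 3 of 16 TRIM windows were at least 90% unique. The part of reads that map to several copies was not tested.

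Solute carriers, which move small molecules across membranes, had 6 open promoters of 40 (15.0%, 5.71 to 29.8%). That range includes the 9.25% of all GC-poor promoters. At 45% GC or more 62.2% of the 331 solute carriers were open. The highest folds were 18.5 for SLC7A11, the cystine transporter, 11.1 for SLC10A5, 11.1 for SLC16A4 and 8.31 for SLC2A2. Clustered protocadherins, adhesion proteins with 1 promoter for each variable exon, had 3 of 30 open (10.0%, 2.11 to 26.5%, beside 9.25% of all GC-poor promoters), PCDHGB1 (10.9), PCDHA8 (5.95) and PCDHGB2 (4.25), and the last rested on 4 fragments. Interleukins, ABC transporters and neurotransmitter receptors had 1 open member each, of 15, 10 and 12 (6.67, 10.0 and 8.33%, near the share of all GC-poor promoters), namely IL9 (8.24 with its summit at 904 bp), ABCC2 and DRD3 (5.95 with its summit at -648 bp).

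Families of innate immunity were examined after the values were seen. Of 15 interferon-induced genes 5 were open (33.3%, 11.8 to 61.6%, beside 9.25% of all GC-poor promoters). They were OAS1 (14.8), IFIT1 (9.39), UBD (9.14), GBP2 (8.42) and SAMD9 (5.95), while neighbours such as IFIT2, IFIT3, GBP1 and SAMD9L were closed. Their summits lay from -103 to -53 bp. The butyrophilins BTN3A2 (14.2), BTN3A1 (13.5) and BTN3A3 (11.3), ligands for gamma delta T cells, were open and BTNL2 closed. Of 16 genes of caspases and inflammasomes 4 were open (25.0%, 7.27 to 52.4%, a range that includes 9.25%). They were CASP10 (24.1), NLRC4 (19.7), CARD8 (12.1) and CASP4 (4.66). The summits at NLRC4 and CASP4 lay at -770 and -640 bp, and CASP4 rested on 6 fragments.

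Of the 15 open members with the highest fold, 3 belonged to a liver list, HPR, FGA and ABCC2. FER, a tyrosine kinase gene, led with 30.2, in a peak at chr5:108748604-108749058 with 144 fragments, the most of any open member, and its summit lay inside an intron at 907 bp. SVIL, which encodes the actin-binding protein supervillin, had 28.3 at -962 bp. RNF43, a ubiquitin ligase that dampens Wnt receptors, and ENSG00000285897, annotated as a read-through gene, shared a peak of 27.4. Others of this group included ANKRD1 (24.5 at -225 bp), MBNL2 (24.4), FLRT3 (24.1), CASP10 (24.1), ANKS4B (24.0 at -75 bp), an organiser of the microvillus, and KLB (23.9 at 4 bp), the co-receptor through which liver responds to FGF19.

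Several open members outside the liver lists are also known from hepatocytes, and these were named after their values were seen. A2M, a plasma protease inhibitor, had 15.0 at -95 bp, and SPP1, which encodes osteopontin, 14.4 at -39 bp. A1CF, a partner of the enzyme that edits the apolipoprotein B message, had 13.8 at -70 bp. SELENOP, the selenium carrier of plasma, had 13.4 at -58 bp. Metabolic enzymes in no liver list included HNMT, which methylates histamine (17.4), the fatty acid activating enzyme ACSL5 (16.3) and the carotenoid-cleaving enzyme BCO2 (10.2). Transcription regulators included SOX6 (21.2 at 8 bp), VGLL4 (18.9 at -15 bp), ELF1 (11.6 at -422 bp) and KLF9 (6.16 at 247 bp). Summits at the 4 hepatocyte proteins lay within 100 bp upstream of the TSS.

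Fold enrichment at open GC-poor promoters had a median of 11.6 (95% interval 10.7 to 13.2, quartiles 8.49 and 16.9, range 4.25 to 30.2), against 18.1 at the open promoters of 45% GC or more and 10.7 over all autosomal peaks. A fold of 20 or more was reached by 26 of 183 (14.2%) against 40.1% at 45% GC or more, and a fold under 10 was found at 72 (39.3%) against 12.6%. The liver lists had a median of 12.5 and the other open members 11.4, with 95% intervals of 9.73 to 16.2 and 10.4 to 13.2 that overlapped. Median peak width was 194 bp, against 281 bp. The number of fragments at the summit, worked out from the caller's fold and p-value, had a median of 17 (quartiles 11 and 35.5) against 46, and 42 of the 183 members (22.95%) rested on at most 10 fragments, so the fold of such a member has a wide counting error.

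Summits lay just before the TSS. The median position was -58 bp, and 107 of 183 summits (58.5%, 51.0 to 65.7%) lay within 100 bp of the TSS, against 56.5% at promoters of 45% GC or more. Upstream of the TSS lay 147 (80.3%) against 84.0%. Beyond 500 bp lay 35 (19.1%, 13.7 to 25.6%) against 8.96% (8.45 to 9.49%). The TSS itself fell inside the peak at 107 promoters (58.5%) against 77.7%. Members with the summit beyond 250 bp had a median fold of 9.73 (8.51 to 11.99), and those within 250 bp one of 12.5 (11.1 to 13.8). Of the summits, 16 lay in an untranslated exon, 6 in a coding exon and 13 in an intron of the canonical transcript. In the liver lists 36 of 43 summits (83.7%) lay within 250 bp, and in the other open members 100 of 140 (71.4%).

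**Figure D3:**
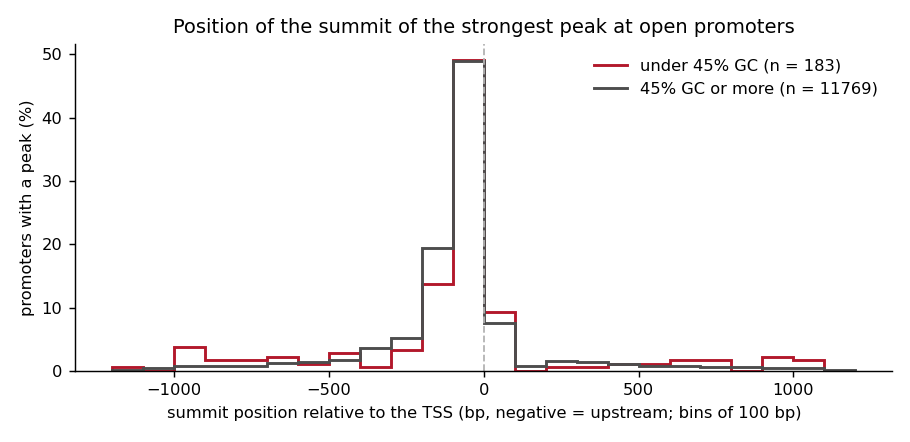
Position of the summit of the strongest peak relative to the TSS (x axis, bp, bins of 100 bp, negative is upstream) at open promoters under 45% GC (red) and of 45% GC or more (grey), as a share of the open promoters of each class (y axis, %). The 100 bp before the TSS hold 49.2% of summits under 45% GC and 48.9% of the others.

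Most open GC-poor promoters shared their peak with no other gene. The peak overlapped no other annotated TSS window at 156 (85.2%, 79.3 to 90.05%) against 59.5% at 45% GC or more. It also overlapped the window of another protein-coding gene at 13 (7.10%) against 21.2%, and of noncoding genes alone at 14 (7.65%) against 19.3%. At 12 members the summit lay nearer to the TSS of another gene, DLG2, RNF43 and ANKS4B among them. The 13 members whose peak was shared with a coding gene had a median fold of 16.8 and the 170 others one of 11.1. More than 1 peak was found at 20 members (10.9%) against 24.8%.

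**Figure D4:**
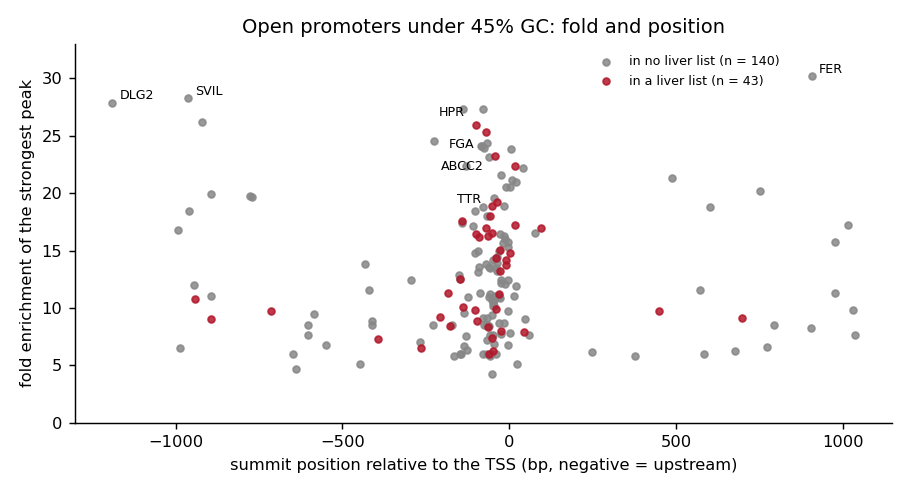
Fold enrichment of the strongest peak (y axis) against the position of its summit relative to the TSS (x axis, bp, negative is upstream) for the 183 open promoters under 45% GC; each point is 1 gene, red for the 43 in a liver list. Points crowd within 250 bp of the TSS, and FER, SVIL and DLG2, with the highest folds, lie far from it.

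Sequence was read within 50 bp of each summit. Its median GC content was 47.52%, above the 39.6% of windows 2000 bp away and below the 70.3% at promoters of 45% GC or more. The letters GGGCGG of the SP and KLF factors, searched on both strands like all motifs here, were found at 7 of 180 summits (3.89%) against 52.2%, and CCGGAAG of ETS factors at 2 (1.11%) against 10.7%. GTTAAT, the core of the HNF1 site, was found at 15 (8.33%, 4.74 to 13.4%) against 0.925%, in 3.41% of all autosomal peaks and in 3.61% of the windows 2000 bp away. By group it was found at 7 of 42 summits of the liver lists (16.7%, 6.97 to 31.4%) and 8 of 138 others (5.80%, 2.54 to 11.1%). TGTTTAC of forkhead factors was found at 9 (5.00%) against 4.79% of all autosomal peaks, and TGACTCA of FOS and JUN at 7 (3.89%) against 4.40%. TATAAA was found at 14 (7.78%) against 2.00% of all peaks, and in 11.9% of the windows 2000 bp away. The class was chosen by low GC content, so contrasts of motif shares with promoters of 45% GC or more partly follow from that choice.

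In the 300 bases from 250 bp before to 50 bp after the TSS, open and closed GC-poor promoters were set side by side with all promoters. A TATA box on either strand was found in 52 of 183 open (28.4%, 22.01 to 35.5%) and 637 of 1796 closed members (35.5%, 33.3 to 37.7%), against 9.74% of all promoters. With its first base 40 to 20 bp before the TSS, on the strand of the gene, it was found in 13 open (7.10%) and 194 closed members (10.8%), against 3.98% of all promoters. The HNF1 site with at most 1 letter different was found in 14 open (7.65%, 4.25 to 12.5%) and 46 closed members (2.56%, 1.88 to 3.402%), against 0.581% of all promoters. The 14 include CFI and ENSG00000285330, which have the same TSS and so the same sequence. The core GTTAAT alone was found in 37 open (20.2%, 14.7 to 26.8%) and 301 closed members (16.8%, 15.1 to 18.6%), against 4.63% of all promoters, and within the liver lists in 13 of 43 open (30.2%) and 27 of 69 closed members (39.1%). Read the other way, 14 of the 60 GC-poor promoters with such a match to the HNF1 site were open (23.3%, 13.4 to 36.0%) and 169 of 1919 without it (8.81%, 7.58 to 10.2%). Within the liver lists this match to the HNF1 site was about as frequent at open as at closed members, 7 of 43 (16.3%) and 11 of 69 (15.9%). GGGCGG was found in 17 open (9.29%) and 66 closed members (3.67%), against 61.7% of all promoters, and CCAAT, bound by NFY, in 43.7 and 43.7% against 35.7%. Contrasts with all promoters partly follow from the choice of members by low GC content. A match is a run of letters and does not show that a factor was bound.

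**Figure D5:**
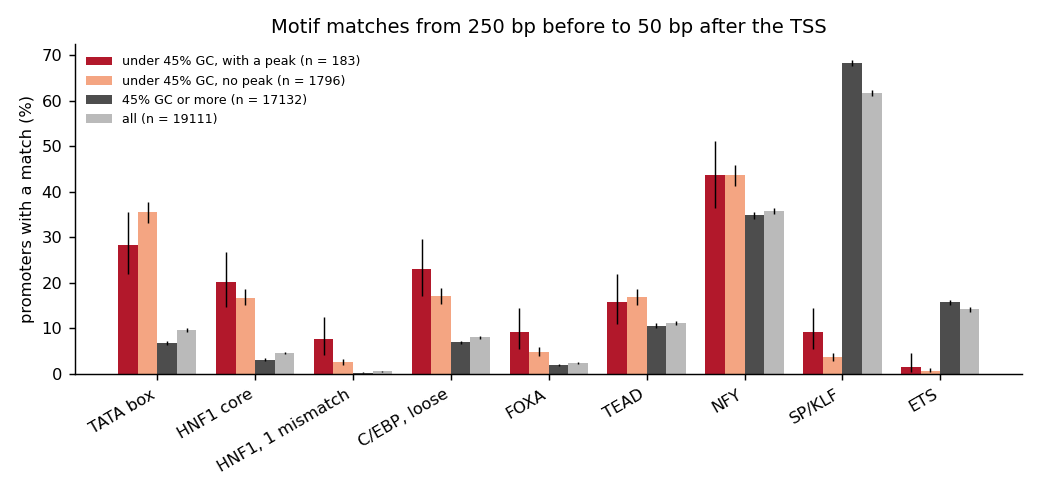
Share of promoters with a motif match on either strand (y axis, %) in the 300 bases around the TSS for open and closed promoters under 45% GC, those of 45% GC or more and all; bars are shares and lines exact 95% intervals. HNF1 core is GTTAAT, and the loose C/EBP motif is TTGC, any 2 bases, AA. TATA boxes are found in 28.4% of open and 35.5% of closed members, and SP/KLF matches in 9.29 and 3.67%.

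Closed members were mostly far from any peak. Their nearest peak lay within 2500 bp of the TSS at 94 of 1796 (5.23%), within 10000 bp at 418 (23.3%) and beyond 100000 bp at 374 (20.8%), against 13.4, 44.9 and 9.90% of the closed promoters of 45% GC or more. The median distance was 30742 bp over all closed members, 15101 bp in the liver lists, 36431 bp in the lists of other tissues and 82285 bp for olfactory receptors. Some closed liver genes had a peak just outside the window, and those given here were named after their values were seen. GSTA5, a glutathione transferase, had a peak of fold 21.6 lying 1006 bp downstream of the TSS. ITIH2, which encodes a hyaluronan-binding plasma protein, had one of fold 17.96 that lay 2226 bp upstream. In the whole liver lists 7 of the 69 closed genes had a peak at another annotated start.

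Another annotated start of the gene had a peak for 174 closed members (9.69%, 8.36 to 11.1%). That start had 45% GC or more in 117 of them (67.2%, 59.7 to 74.2%), with a median of 51.9% GC and a median fold of 15.2, and lay a median of 26581 bp away. CPS1, the first enzyme of the urea cycle, was the liver gene with the highest fold at such a start, 35.1. Counting any annotated start, 357 of 1979 genes (18.0%) had a peak. Of 1699 members with a window at least 90% unique 167 were open (9.83%), and of 114 with a window under 50% unique 0 were open, which allows up to 2.63%.

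By chromosome, the open share of GC-poor promoters ranged from 0 of 35 on chromosome 21, where the exact 95% upper bound is 10.003%, to 7 of 28 on chromosome 16 (25.0%, 10.7 to 44.9%), and chromosome 11, with 150 olfactory receptors among its 262 members, had 7 open (2.67%). On chromosomes 2, 14, 16, 17 and 20, which HepG2 carries in extra copies, 35 of 266 members were open (13.2%, 9.34 to 17.8%), against 148 of 1713 on the other autosomes (8.64%, 7.35 to 10.1%). For promoters of 45% GC or more these shares were 71.0 and 67.9%. The part of copy number in these shares was not tested.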

How the data were processed

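Bulk ATAC-seq of HepG2 was analysed from the peaks of 1 of 8 libraries (0.1% FA, cryopreserved). The authors ran cutadapt, Bowtie2 against GRCh38 within snakePipes, samtools to drop duplicates and MACS2 to call peaks. For the MACS2 version, and for whether ends were moved to the Tn5 insertion point, the sources used here give nothing. The sample records add bcl2fastq and deepTools 3.5.5. Per the file's peak names, the caller's input was a filtered file of short fragments. The values the authors deposited per peak are a score, a ratio (fold enrichment over local background), the -log10 p and -log10 q values, and the position of the summit. Library depth was not analysed here.

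All 60474 peaks on named sequences of hg38 ended inside them. The strongest of several overlapping peaks stood for a gene. Placement was tested on simulated data (1200 of 1200 promoters right), and fragments at the summit, solved under the usual MACS2 formulas, came out whole within 0.01 for 99.7% of autosomal peaks (4149 of 4149 simulated summits were recovered). Of these peaks 1246 had a further whole solution, and the one nearer to a whole number was kept. Uniqueness of windows was taken over 50-base stretches every 10 bases.

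Genes were grouped in 14 lists and in 42 families by symbol, and 26 motifs were searched. Named genes are up to 4 open members of each list or family with the highest fold, closed or open members where at most 5 are, the 15 open members of highest fold and the 5 of lowest GC. Members, lists and families were chosen with earlier results of these data known, and 9 further families after the values were seen. Scripts used scipy 1.17.1 and pandas 2.3.3 under Python 3.11.15, pysam 0.24.0 and samtools 1.23.1. Sequences on chromosome 8 were not printed. A few genes and 1 sequence that the naming rules selected are not reported here. Alternatives were other TSS windows, GC limits and windows, q-value limits, summits in place of peaks, any annotated start, unique windows and other motif windows.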

Additional observations from a re-analysis of the deposited data

Results flagged for a closer look

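Chromosome X lies outside the autosomes to which the promoters above were limited, and its peaks were examined as data not used in any comparison. Of its 100 GC-poor protein-coding promoters 10 were open (10.0%, 4.90 to 17.6%), beside 9.25% (8.01 to 10.6%) on the autosomes, with a median fold of 10.3. The open genes included MORF4L2, STEEP1, FAAH2, SERPINA7, HMGN5, COX7B, GRPR, VEGFD and ARSF. SERPINA7 encodes the thyroxine-binding globulin that liver secretes.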

How the results depend on the processing

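With 1 library, no replicate could be left out, and no alternative below measures the spread between libraries. Of 56 values recomputed for the main results, 39 stayed within the 95% interval of the reported value and 17 moved outside it. The open share of GC-poor promoters was 7.83% with windows of 500 bp and 13.997% with 2500 bp, 4.40% with a -log10 q of at least 20, 7.54% for GC under 40% and 17.3% under 50%, 15.5% with GC taken over 1000 bp to either side, and 18.0% over any annotated start. The median fold was 17.2 with a -log10 q of at least 20, 14.05 for GC under 50% and 15.6 with GC over 1000 bp. Summits within 250 bp made up 89.0% with windows of 500 bp and 46.9% with 2500 bp, 81.6% with a -log10 q of at least 20 and 84.5% with GC over 1000 bp. The open share in the liver lists was 19.6% with a -log10 q of at least 20. The HNF1 core was found at 16.1% of summits within 100 bp to either side. Peaks shared with another gene made up 14.8% over all genes and 7.10% over protein-coding genes alone, by construction. For single lists, families and motifs 518 of 555 values stayed within the interval and 37 moved. Intervals of small groups are wide, such as 0 to 52.2% for 0 of 5 keratins, so staying inside them says little. No paired analysis was possible because the peaks of only 1 library were analysed here. The depth limits folds of members with few fragments, and a closed promoter may hold signal below the caller's limit.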
